A study of Homo sapiens with 9 samples.

Results

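Septins are GTP-binding proteins that join into rod-shaped complexes, filaments and rings beneath the plasma membrane, at the cleavage furrow of dividing cells and around mitochondria. A rod is built from members of several homology groups, and septins of 1 group can take each other's place in it: SEPTIN1, SEPTIN2, SEPTIN4 and SEPTIN5 form the SEPTIN2 group, SEPTIN3, SEPTIN9 and SEPTIN12 the SEPTIN3 group, SEPTIN6, SEPTIN8, SEPTIN10, SEPTIN11 and SEPTIN14 the SEPTIN6 group, and SEPTIN7 stands alone. SEPTIN4 also encodes ARTS, an isoform found at mitochondria that binds the caspase inhibitor XIAP and promotes apoptosis. Several septin genes, among them SEPTIN2, SEPTIN5, SEPTIN6, SEPTIN9 and SEPTIN11, are known as fusion partners of KMT2A (MLL) in acute leukaemia.

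Transcripts of SEPTIN4 and of 5 further septins, SEPTIN2, SEPTIN6, SEPTIN7, SEPTIN9 and SEPTIN11, were followed here, 6 of the 13 septin genes among 60612 genes in the deposited table. The members were taken by gene name. SEPTIN4 was chosen by its FPKM, near 0 in the KO1 libraries and high in NC1 and NCO, and the other 5 serve as comparison. Its differences from KO1 are therefore given as a description without a test.

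The study sequenced RNA from MV4-11, a human acute myeloid leukaemia cell line with an MLL fusion, harvested at 72 h, in 9 libraries with 3 per title stem. By the characteristics, the stem NCO is CD36 knockdown with decitabine, NC1 is wild type (WT) with decitabine and KO1 is WT with vehicle. All 9 libraries come from the same line. Decitabine is a cytosine analogue that traps DNA methyltransferases, and CD36 is a membrane receptor for fatty acids. CD36 itself was at 2.49 ± 0.341 FPKM in NCO, 2.18 ± 0.373 in NC1 and 0.126 ± 0.0231 in KO1 (SD, n = 3 each), so it was not lower in the libraries labelled as knockdown and was lowest in those whose stem reads as a knockout. Groups are therefore named by stem, and directions are those between stems.

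The values are FPKM, fragments scaled to transcript length and to library size, so levels can be set side by side between genes. Depth is unknown. The FPKM sum was 493061 to 496496 in NCO, 505428 to 512787 in NC1 and 515322 to 530097 in KO1, and mitochondrial genes took 17.4% to 18.5% of it in NCO, 14.5% to 17.6% in NC1 and 14.5% to 15.3% in KO1. Of 12 myeloid markers 11 reached 1 FPKM in at least 3 libraries, with a summed level of 575 to 630 FPKM in NCO, 591 to 630 in NC1 and 506 to 519 in KO1. Markers of tissues in which SEPTIN4 is known to be abundant were near absent. The 8 neural markers summed to 0.965 to 1.43 FPKM in NCO, 0.335 to 1.53 in NC1 and 0.334 to 0.847 in KO1, with RBFOX3, SYT1 and SOX10 among those at 0 in every library. The 8 testis markers summed to at most 0.21 FPKM in NCO, 0.0584 in NC1 and 0.208 in KO1, with PRM1, PRM2, TNP1, ODF1, AKAP4 and SYCP3 at 0. Of 12 erythroid and megakaryocytic markers, which include platelet genes, EPOR alone reached 1 FPKM in at least 3 libraries, and PF4, PPBP and HBA1 were at 0. The 8 lymphoid markers summed to at most 1.99 FPKM in any library. The 8 stromal and epithelial markers summed to 2.66 to 2.85 FPKM in NCO, 4.30 to 4.94 in NC1 and 1.32 to 1.498 in KO1, through KRT8 and COL1A1. The part of these low signals and of the mitochondrial share in the septin values was not tested.

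SEPTIN4 (ENSG00000108387) lies on the minus strand of chromosome 17, 58520250 to 58544368 in the table's GRCh38 coordinates. RefSeq (GRCh38.p14) gives it 4 start sites, at 0.04, 12.3, 15.1 and 16.4 kb from the upstream end of the gene. FPKM per gene does not tell which of them was used. Since decitabine acts on methylation of cytosine in CpG, the CpG content of each window of 250 bases before and 50 after the start was counted. The window at 12.3 kb holds 36 CpG, more than the median of 14 over 35116 RefSeq promoters, and 12.7% of those hold at least as many. The other 3 windows hold 1, 1 and 3. The CpG-rich window (chr17:58532011-58532310, minus strand) is printed because it alone carries many potential methylation sites, in capitals.
SEPTIN4 start at 12.3 kb: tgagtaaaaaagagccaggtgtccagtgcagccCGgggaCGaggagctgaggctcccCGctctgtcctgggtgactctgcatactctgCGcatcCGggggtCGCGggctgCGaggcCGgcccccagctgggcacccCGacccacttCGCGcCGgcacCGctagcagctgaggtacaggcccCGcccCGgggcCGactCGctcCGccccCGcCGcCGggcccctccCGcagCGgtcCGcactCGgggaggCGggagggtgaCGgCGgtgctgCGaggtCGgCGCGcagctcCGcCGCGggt
The window at 15.1 kb (chr17:58529267-58529566, minus strand) is printed because it holds the only match among the 4 windows to the core letters of the interferon-stimulated response element (GAAA, any 2 bases, GAAA), searched on both strands; the match is in capitals and lies 9 to 18 bases into the transcript.
SEPTIN4 start at 15.1 kb: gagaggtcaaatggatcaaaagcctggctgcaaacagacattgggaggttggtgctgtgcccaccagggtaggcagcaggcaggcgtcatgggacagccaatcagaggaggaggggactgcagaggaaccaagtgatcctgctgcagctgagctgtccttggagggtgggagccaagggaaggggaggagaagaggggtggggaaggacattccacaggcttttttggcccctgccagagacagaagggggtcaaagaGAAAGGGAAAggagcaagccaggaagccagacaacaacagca
These letters occur in 3.57% of all RefSeq promoter windows. The interferon gamma activation letters TTCNNNGAA, found in 7.66% of windows, match once in the window at 0.04 kb, and the GC box GGGCGG, found in 45.0%, matches in the CpG-rich window alone among the 4, at 2 places. A match of letters is a description of the sequence and not a measured site. Neither methylation nor factor binding was measured in these files. Over the other members, every gene has at least 1 start window with 18 or more CpG: SEPTIN6 holds 18 in its single window, SEPTIN11 31 in its single window, SEPTIN2 37 to 40 in 3 windows, SEPTIN7 22 to 32 in 3 windows and SEPTIN9 3 to 36 in 10 windows.

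**Figure D1:**
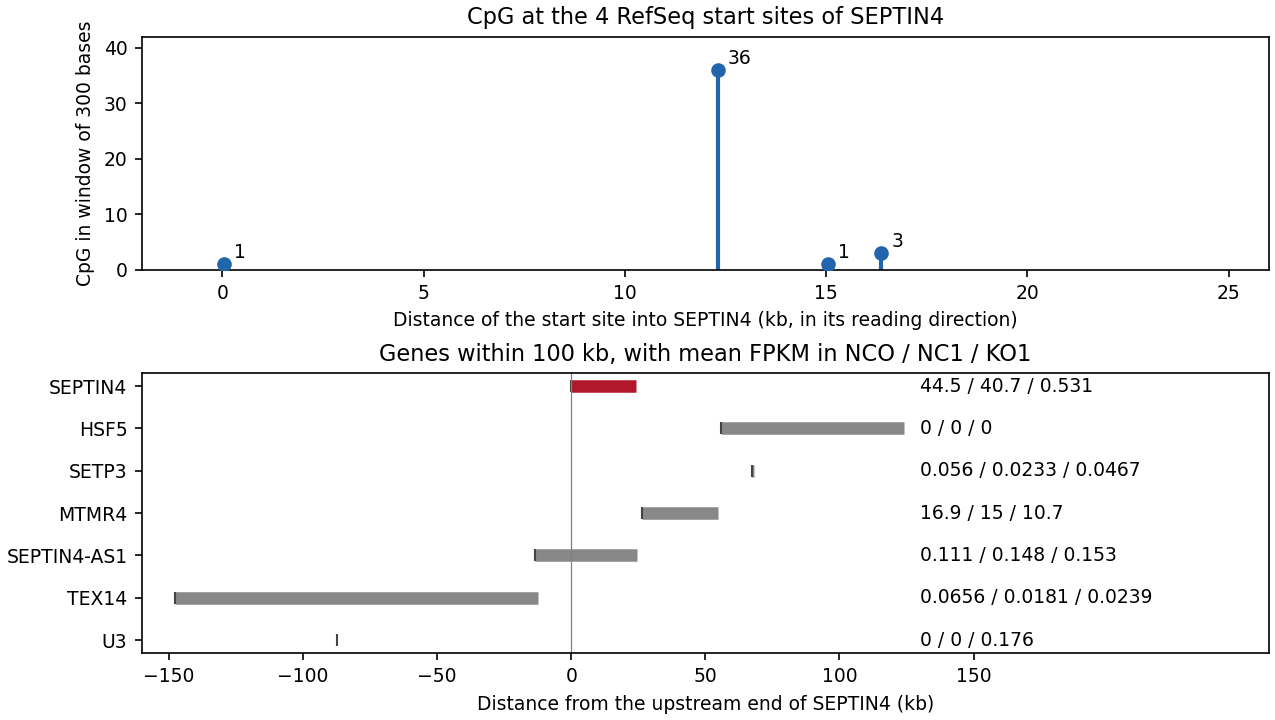
Top: number of CpG (vertical axis) in the window of 300 bases at each of the 4 RefSeq start sites of SEPTIN4, by distance in kb into the gene. Bottom: extent of SEPTIN4 (red) and of the genes within 100 kb (grey), by distance in kb from its upstream end, with the mean FPKM in NCO, NC1 and KO1 at the right. The start at 12.3 kb has 36 CpG against 1, 1 and 3 at the others, and MTMR4 is the only neighbour above 1 FPKM.

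SEPTIN4 had 46.0, 42.1 and 45.3 FPKM in the NCO libraries, 41.8, 41.4 and 39.0 FPKM in the NC1 libraries, and 0.828, 0.448 and 0.317 FPKM in the KO1 libraries. Each NCO library lay above each NC1 library, and both groups lay far above KO1. The means were 44.5 ± 2.08 FPKM in NCO, 40.7 ± 1.53 in NC1 and 0.531 ± 0.265 in KO1 (SD, n = 3). The ratio of means was 83.7 for NCO over KO1 and 76.7 for NC1 over KO1. Set library against library, the ratio ran from 50.8 to 145 for NCO over KO1 and from 47.1 to 132 for NC1 over KO1, because the low KO1 values themselves spread 2.61-fold. On the log2(FPKM + 1) scale the differences were 4.90 for NCO minus KO1, the largest positive one of 12586 genes tested, and 4.78 for NC1 minus KO1, where the interferon-induced gene IFI27 alone exceeded it. SEPTIN4 was chosen for these differences, so its rank is a description and no independent result. Both comparisons share the KO1 libraries. With a pseudocount of 0.1 they became 6.22 for NCO minus KO1 and 6.10 for NC1 minus KO1. SEPTIN4 passed the filter of 1 FPKM in 3 libraries through NCO and NC1 alone, since no KO1 library reached 1 FPKM. Among all genes of a library, SEPTIN4 ranked between 1232 and 1378 by FPKM in NCO, between 1417 and 1569 in NC1 and between 12379 and 14806 in KO1. In RNA from a culture, a change in the share of cells that express the gene and a change in RNA per cell cannot be told apart.

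The comparison of NCO with NC1 is labelled as CD36 knockdown against WT with decitabine in both. SEPTIN4 was 0.12 higher in NCO (log2 scale, 95% interval from -0.10 to 0.35), and the means stood at a ratio of 1.09. SEPTIN4 was chosen as high in both groups, so a gene low in either would not have been taken. The test is thus not free of the choice. The adjusted p was 0.446 in limma, and it stayed above 0.05 under all 17 alternative settings tried. It ran from 0.186 in the fit of the compared groups only to 0.763 with a pseudocount of 0.1. The main fit shares its estimate of spread over NCO, NC1 and KO1. The interval therefore also carries the spread of the KO1 values under 1 FPKM, though KO1 is not compared here. The interval includes no difference, and it reaches a rise of 0.35.

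**Figure D2:**
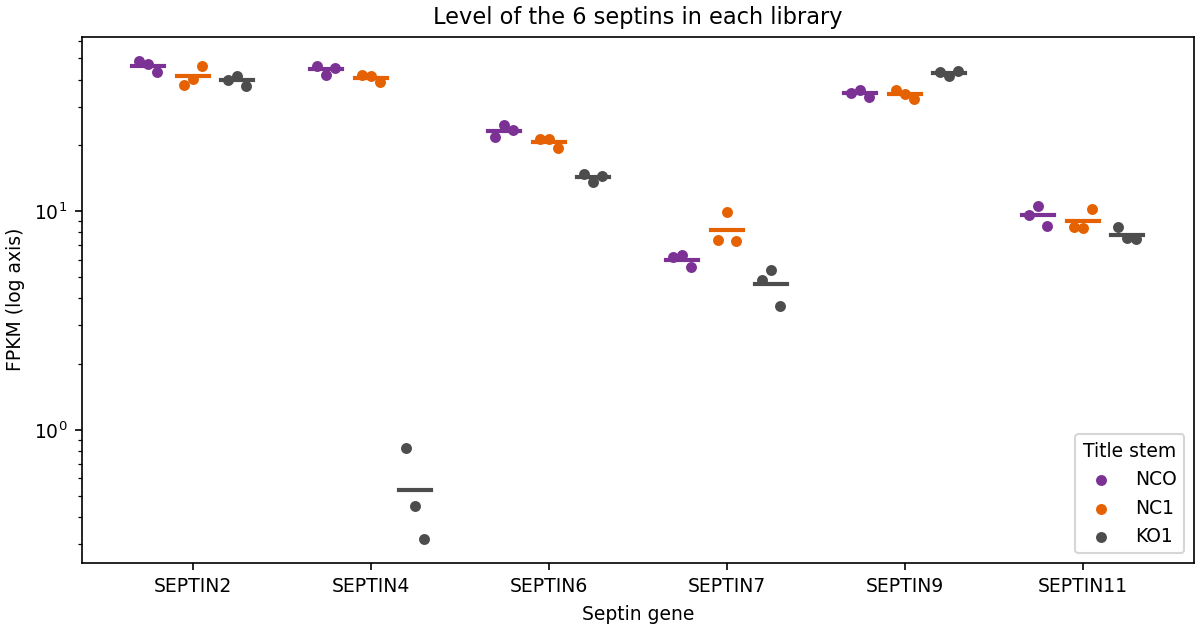
FPKM (log axis) of the 6 septins in each library, with points for the libraries of NCO, NC1 and KO1 and lines for the group means. SEPTIN4 sits at 39.0 FPKM or more in NCO and NC1 and below 1 FPKM in KO1, while every library of the other 5 is above 3 FPKM, and SEPTIN7 runs from 3.67 to 9.89 FPKM.

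The antisense and pseudogene transcripts of SEPTIN4 did not follow it. SEPTIN4-AS1 runs across the whole gene on the opposite strand. Whether counting used strand is not stated, so it is unknown whether reads of the pair were told apart where they overlap. It was at 0.111 ± 0.118 FPKM in NCO, 0.148 ± 0.136 in NC1 and 0.153 ± 0.0595 in KO1, under the filter in all groups. AC093752.1 on chromosome 4 (119454791 to 119552025), annotated in the table as a SEPTIN4 pseudogene, had 7.01, 8.34 and 8.22 FPKM in NCO, 6.50, 8.31 and 8.33 in NC1, and 7.51, 8.60 and 8.19 in KO1. The 3 groups overlapped, and the pseudogene differed by -0.04 for NCO minus KO1 (adjusted p = 0.744), -0.07 for NC1 minus KO1 (adjusted p = 0.594) and 0.03 for NCO minus NC1 (adjusted p = 0.879, limma). In KO1 the pseudogene thus stood above its parent gene, and in NCO and NC1 below it. How the authors' counting placed reads that match both copies was not tested.

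Of the 6 other genes within 100 kb of SEPTIN4, MTMR4, a phosphoinositide phosphatase gene that begins 2345 bases beyond the 3′ end of SEPTIN4 on the same strand, was the only one tested. MTMR4 had 17.6, 17.6 and 15.5 FPKM in NCO, 14.7, 14.6 and 15.7 in NC1, and 11.1, 10.2 and 10.7 in KO1. NCO and NC1 overlapped, and both lay above KO1. MTMR4 was higher by 0.61 in NCO than in KO1 (adjusted p = 2.23e-05) and by 0.45 in NC1 than in KO1 (adjusted p = 0.000219), and NCO minus NC1 was 0.16 (adjusted p = 0.124, limma). The testis genes TEX14 and HSF5, which flank the pair, were at 0.0656 ± 0.0604 and 0 FPKM in NCO, 0.0181 ± 0.0159 and 0 in NC1, and 0.0239 ± 0.005 and 0 in KO1. The small genes SETP3 and U3 reached at most 0.142 and 0.282 FPKM in any library.

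The make-up of septin transcripts differed between KO1 and the other groups, mainly through SEPTIN4. The 13 septins summed to 215 ± 3.98 FPKM in NCO, 207 ± 6.24 in NC1 and 161 ± 3.38 in KO1 (SD, n = 3). Without SEPTIN4 the sums were 171 ± 4.97 FPKM in NCO, 166 ± 5.004 in NC1 and 161 ± 3.14 in KO1. SEPTIN4 made up 20.7% ± 1.13 of the septin sum in NCO, 19.7% ± 0.390 in NC1 and 0.327% ± 0.157 in KO1. Within the SEPTIN2 group its share was 38.9% ± 0.899 in NCO, 36.8% ± 1.11 in NC1 and 0.763% ± 0.366 in KO1. It ranked first or second of the 13 in each NCO and NC1 library and 10th in each KO1 library. The SEPTIN3 group took 21.3% ± 0.539 of the sum in NCO, 21.4% ± 0.675 in NC1 and 31.3% ± 0.925 in KO1. The SEPTIN6 group took 22.8% ± 1.17 in NCO, 21.2% ± 0.438 in NC1 and 22.9% ± 0.447 in KO1. These shares rest on SEPTIN4, the gene chosen for this pattern, and carry no test.

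**Figure D3:**
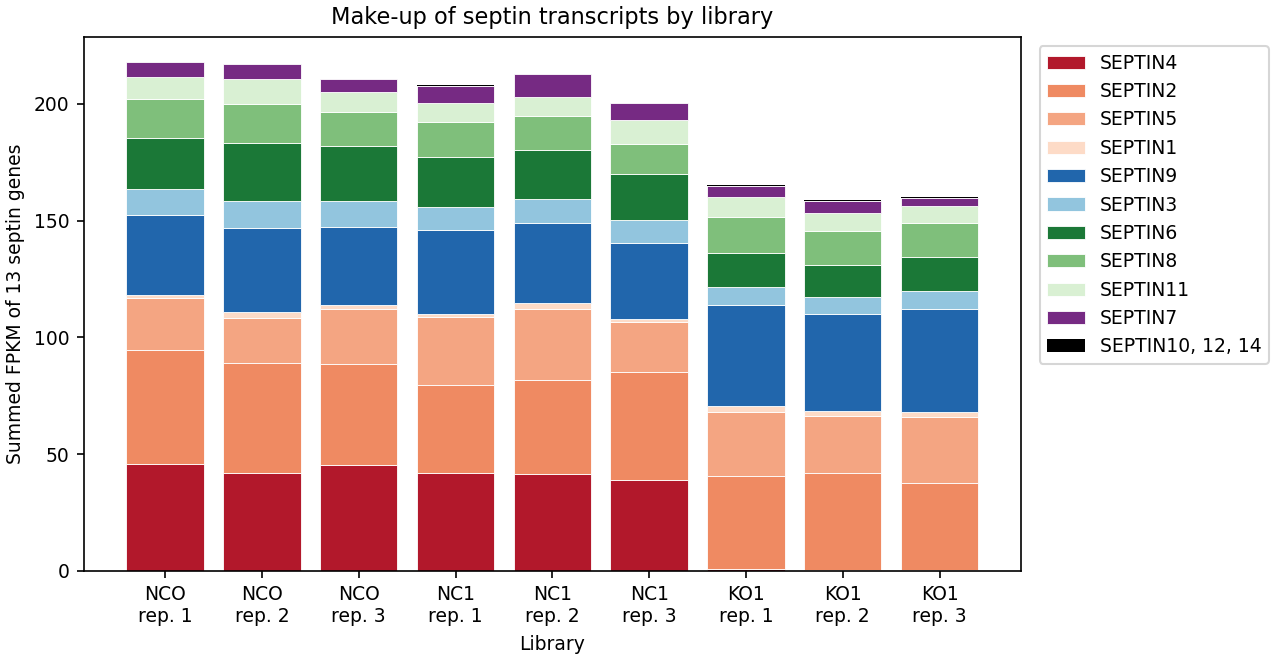
Summed FPKM of the 13 septin genes (vertical axis) in each library, split by gene, with SEPTIN1, SEPTIN2, SEPTIN4 and SEPTIN5 in reds, SEPTIN3 and SEPTIN9 in blues, SEPTIN6, SEPTIN8 and SEPTIN11 in greens, SEPTIN7 in purple and the sum of SEPTIN10, SEPTIN12 and SEPTIN14 in black. SEPTIN4 fills 38.99 to 46.0 FPKM at the foot of the 6 NCO and NC1 bars and is too thin to see in the KO1 bars.

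Of the 5 other members, SEPTIN6 and SEPTIN7 were higher and SEPTIN9 was lower in NC1 than in KO1, and SEPTIN2 and SEPTIN11 were not called, at an adjusted p under 0.05 in limma. Over all genes 47.2% were called in NC1 minus KO1, 28.9% higher and 18.3% lower, so 3 of 5 is near that background. In NCO minus KO1, SEPTIN2, SEPTIN6 and SEPTIN11 were higher, SEPTIN9 was lower and SEPTIN7 was not called, against a background of 52.2%, with 32.1% higher and 20.1% lower. In NCO minus NC1 limma called 0 of the 6 members, against a background of 14.7% of all genes, 6.12% higher and 8.62% lower. At an unadjusted p under 0.05, 2 of the 6 passed there, against 31.2% of all genes. The median difference of all genes was 0.08 for NCO minus KO1, 0.06 for NC1 minus KO1 and 0.01 for NCO minus NC1.

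SEPTIN2 (ENSG00000168385, chromosome 2, 241315100 to 241354027) is the ubiquitous member of the group that holds SEPTIN4. It had 48.8, 46.9 and 43.2 FPKM in NCO, 37.7, 40.2 and 46.3 in NC1, and 40.0, 41.6 and 37.3 in KO1. NCO lay above KO1, and NC1 overlapped both, with NC1 replicate 3 the highest of its group. NCO minus KO1 was 0.22 (0.05 to 0.39, adjusted p = 0.032), NCO minus NC1 0.16 (-0.01 to 0.33, adjusted p = 0.177) and NC1 minus KO1 0.06 (-0.11 to 0.22, adjusted p = 0.564). The call for NCO minus KO1 ended without the filter on low values (adjusted p = 0.108), after trimmed-mean scaling (0.129) and on leaving out KO1 replicate 1 (0.0638), KO1 replicate 3 (0.109), NCO replicate 1 (0.112) or NCO replicate 2 (0.0822). Without NC1 replicate 3, NCO minus NC1 was called (0.24, adjusted p = 0.0369) and NC1 minus KO1 was -0.024. HDLBP overlaps SEPTIN2 on the opposite strand, at 75.1 ± 1.87 FPKM in NCO, 73.9 ± 1.85 in NC1 and 61.3 ± 3.40 in KO1. How reads from the shared stretch were assigned is unknown.

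SEPTIN6 (ENSG00000125354, chromosome X, 119615724 to 119693370), which sits between SEPTIN2 and SEPTIN7 in the classic rod, had 21.8, 24.7 and 23.6 FPKM in NCO, 21.4, 21.4 and 19.5 in NC1, and 14.7, 13.6 and 14.4 in KO1. The groups did not overlap, with KO1 well below the others. NCO exceeded KO1 by 0.67 (0.53 to 0.81, adjusted p = 8.22e-06) and NC1 exceeded KO1 by 0.51 (0.37 to 0.65, adjusted p = 6.66e-05). Both calls held under all 17 alternative settings. NCO minus NC1 was 0.16 (0.02 to 0.30, adjusted p = 0.109).

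SEPTIN7 (ENSG00000122545, chromosome 7, 35800932 to 35907105), needed in most septin complexes, had 6.14, 6.28 and 5.58 FPKM in NCO, 7.36, 9.89 and 7.28 in NC1, and 4.84, 5.37 and 3.67 in KO1. The groups did not overlap, with NC1 highest, pulled up by its replicate 2, and KO1 lowest. NC1 exceeded KO1 by 0.71 (0.42 to 0.99, adjusted p = 0.00104), and this call held under all 17 alternative settings. NCO minus KO1 was 0.33 (0.04 to 0.61, adjusted p = 0.0525) and NCO minus NC1 was -0.38 (-0.66 to -0.10, adjusted p = 0.0709), both close to the threshold and called under some settings. SEPTIN7 has expressed near copies. The pseudogene SEPTIN7P2 was at 4.13 ± 0.911 FPKM in NCO, 4.19 ± 0.355 in NC1 and 3.77 ± 0.483 in KO1. The further copy AC138393.1 was at 1.46 ± 0.373 in NCO, 1.72 ± 0.492 in NC1 and 0.867 ± 0.116 in KO1. AC138393.1 was called higher by 0.53 in NC1 than in KO1 (adjusted p = 0.0115) and by 0.39 in NCO than in KO1 (adjusted p = 0.0444, limma). No KO1 library of it reached 1 FPKM, so the filter favours these calls. SEPTIN7P2 was not called in NC1 minus KO1 (adjusted p = 0.431) or NCO minus KO1 (0.536, limma). The low pseudogene SEPTIN7P9, under the filter, went the other way. It was at 0.0178 ± 0.0309 FPKM in NCO, 0.0166 ± 0.0287 in NC1 and 0.330 ± 0.170 in KO1. Reads could be split among these copies, so the level of SEPTIN7 is uncertain. The part of the copies in its differences was not tested.

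SEPTIN9 (ENSG00000184640, chromosome 17, 77280569 to 77500596), which joins the longer form of the rod, was the only member that fell relative to KO1. It had 34.6, 35.9 and 33.4 FPKM in NCO, 35.9, 34.3 and 32.7 in NC1, and 43.3, 41.4 and 43.9 in KO1. NCO and NC1 overlapped almost fully, and both lay below KO1. The difference was -0.30 for NCO minus KO1 (-0.42 to -0.19, adjusted p = 0.000599) and -0.32 for NC1 minus KO1 (-0.43 to -0.20, adjusted p = 0.000485), and both calls held under all 17 alternative settings. NCO minus NC1 was 0.01 (-0.10 to 0.13, adjusted p = 0.889).

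SEPTIN11 (ENSG00000138758, chromosome 4, 76949703 to 77040384), of the SEPTIN6 group, had 9.65, 10.6 and 8.51 FPKM in NCO, 8.45, 8.35 and 10.2 in NC1, and 8.45, 7.51 and 7.42 in KO1. NCO lay just above KO1, and NC1 overlapped both. NCO minus KO1 was 0.26 (0.06 to 0.47, adjusted p = 0.0355), a call that ended without the filter on low values (0.11), after trimmed-mean scaling (0.101) and quantile normalization (0.121) and on leaving out KO1 replicate 2 (0.096), KO1 replicate 3 (0.101), NCO replicate 1 (0.0825) or NCO replicate 2 (0.137). NC1 minus KO1 was 0.18 (-0.02 to 0.39, adjusted p = 0.134) and NCO minus NC1 0.08 (-0.13 to 0.29, adjusted p = 0.598). Without NC1 replicate 3, its highest library in that group, these were 0.098 for NC1 minus KO1 and 0.17 for NCO minus NC1, and neither was called.

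By mean level the order in NCO was SEPTIN2, SEPTIN4, SEPTIN9, SEPTIN6, SEPTIN11 and SEPTIN7, and SEPTIN2 and SEPTIN4 overlapped. The order in NC1 was the same, with overlap between SEPTIN2 and SEPTIN4 and between SEPTIN11 and SEPTIN7. In KO1 it was SEPTIN9, SEPTIN2, SEPTIN6, SEPTIN11, SEPTIN7 and SEPTIN4, with overlap between SEPTIN9 and SEPTIN2.

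**Figure D4:**
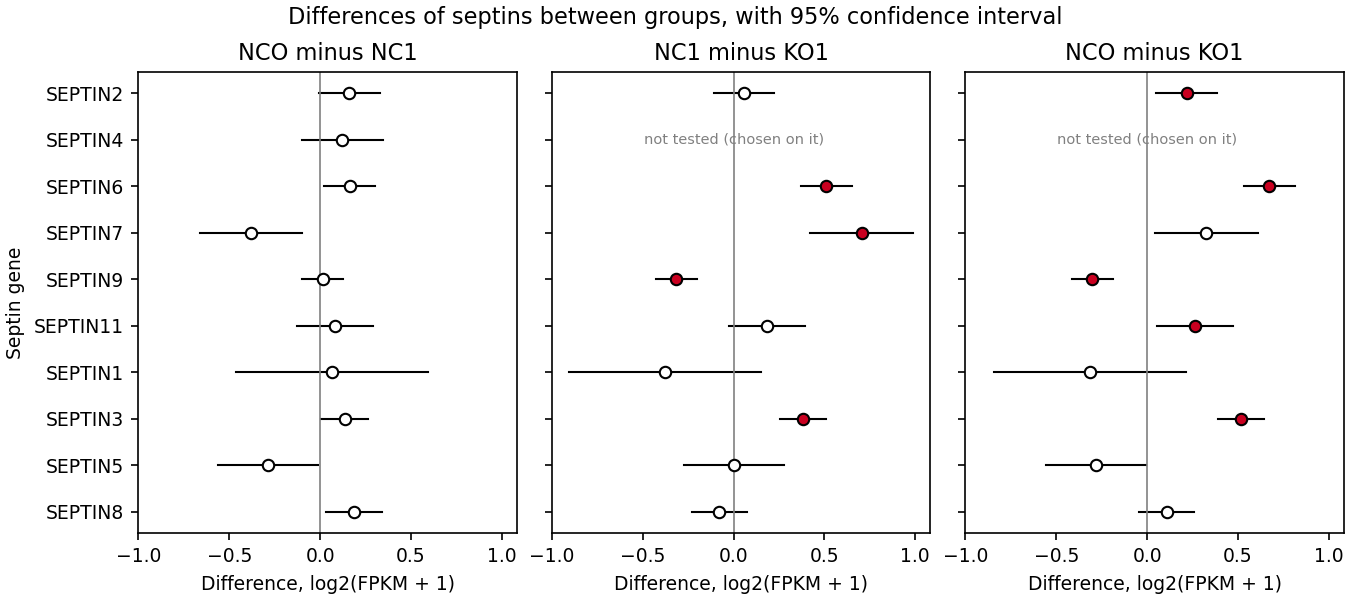
Difference on the log2(FPKM + 1) scale (horizontal axis) with its 95% confidence interval for the 10 tested septins in NCO minus NC1, NC1 minus KO1 and NCO minus KO1. Red points passed an adjusted p of 0.05. SEPTIN6 and SEPTIN3 lie to the right and SEPTIN9 to the left in both comparisons with KO1, no point is red in NCO minus NC1, and SEPTIN4 is left out of the comparisons with KO1.

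Of the 7 septins that are no member, 4 were tested. SEPTIN3, a septin known mainly from neurons, had 11.0, 11.6 and 11.0 FPKM in NCO, 10.3, 10.2 and 9.85 in NC1, and 7.37, 7.32 and 7.87 in KO1. It was higher by 0.52 in NCO than in KO1 (adjusted p = 3.13e-05) and by 0.38 in NC1 than in KO1 (adjusted p = 0.000291). SEPTIN5, first described in neurons and platelets, was at 21.7 ± 2.10 FPKM in NCO, 27.0 ± 5.05 in NC1 and 26.6 ± 2.04 in KO1. SEPTIN8 was at 16.1 ± 1.37 in NCO, 13.98 ± 0.740 in NC1 and 14.8 ± 0.514 in KO1. SEPTIN1, known from lymphocytes, was at 1.74 ± 0.753 in NCO, 1.63 ± 0.823 in NC1 and 2.32 ± 0.332 in KO1. SEPTIN1, SEPTIN5 and SEPTIN8 were not called in any comparison (adjusted p between 0.0797 and 0.981, limma), but some alternative settings called them. SEPTIN5 was called lower without NC1 replicate 3 in NCO minus KO1 (-0.28, adjusted p = 0.00949) and in NCO minus NC1 (-0.44, adjusted p = 0.00933), and also in NCO minus KO1 after trimmed-mean scaling (0.0431) and in the fit of the compared groups only (0.0137). SEPTIN8 was called higher with mitochondrial genes removed in NCO minus KO1 (0.0138) and NCO minus NC1 (0.0332), and in both without NCO replicate 3 (0.0427 in NCO minus KO1 and 0.0338 in NCO minus NC1). SEPTIN1 was called lower in NC1 minus KO1 without NC1 replicate 2 (-0.62, adjusted p = 0.0399). SEPTIN10 stayed under 0.2 FPKM, and SEPTIN12, a sperm septin, reached at most 0.153. SEPTIN14 was listed at 0 in every library.

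Genes with which septins work were counted from lists, to be read against the background shares above, which are those of the main fit. Trimmed-mean scaling called 6566 of all 12582 genes in NCO minus KO1 and 6082 in NC1 minus KO1. With mitochondrial genes removed, 7419 of 12561 were called in NCO minus KO1, 6260 in NC1 minus KO1 and 2484 in NCO minus NC1. Quantile normalization called 1995 of 12586 in NCO minus NC1. In the cytokinesis list 14 of 19 tested genes were higher and 0 lower in NCO than in KO1 (median 0.28), 8 were higher and 1 lower in NC1 than in KO1 (median 0.17), and 1 was higher and 1 lower in NCO than in NC1 (median 0.12). Over all genes 32.1% were higher and 20.1% lower in NCO minus KO1, and 28.9% higher and 18.3% lower in NC1 minus KO1. The shares in NCO minus NC1 were 6.12% higher and 8.62% lower. In NCO minus NC1 10 of the 19 had an unadjusted p under 0.05 in limma, against 31.2% of all genes. The calls there were CIT, higher (adjusted p = 0.0477), and MYL12B, lower (adjusted p = 0.0289), and each was lost in part of the alternative settings. The lower gene in NC1 minus KO1 was RHOA (adjusted p = 0.0152). AURKB, the mitotic kinase of the midzone, was at 51.3 ± 2.47 FPKM in NCO, 56.0 ± 4.07 in NC1 and 23.5 ± 0.271 in KO1. ANLN, the anillin scaffold that recruits septins to the furrow, was at 10.3 ± 0.906 in NCO, 8.499 ± 0.130 in NC1 and 4.72 ± 0.639 in KO1. The abscission factor CEP55 was at 9.88 ± 0.281 in NCO, 10.4 ± 0.417 in NC1 and 6.31 ± 0.631 in KO1. The myosin light chain MYL12A was at 229 ± 7.79 in NCO, 244 ± 5.03 in NC1 and 157 ± 5.73 in KO1, and MYL12B was at 92.9 ± 2.89 in NCO, 105 ± 1.24 in NC1 and 69.3 ± 3.72 in KO1. These 5 genes were called in both comparisons with KO1 under all 17 alternative settings. The counts moved with scaling: after trimmed-mean scaling 9 were higher and 2 lower in NCO minus KO1, and with mitochondrial genes removed 7 were higher and 0 lower in NCO minus NC1. In NCO minus NC1, quantile normalization gave 5 higher and 0 lower. The counts over all genes under these settings were not split by direction.

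Of 14 genes tied to ARTS and its apoptotic partners, all tested, 6 were higher and 4 lower in NC1 than in KO1 (median 0.16), 6 were higher and 4 lower in NCO than in KO1 (median 0.21), and 2 were higher and 0 lower in NCO than in NC1 (median -0.03). Over all genes 47.2% were called in NC1 minus KO1, 52.2% in NCO minus KO1 and 14.7% in NCO minus NC1. After trimmed-mean scaling 5 were higher and 5 lower in each comparison with KO1. The calls in NCO minus NC1 were APAF1 (adjusted p = 0.0413) and BCL2 (adjusted p = 0.0401), and both were lost when, among others, NCO replicate 2 was left out (0.143 for APAF1 and 0.123 for BCL2). XIAP, the caspase inhibitor that ARTS binds, was at 1.73 ± 0.0328 FPKM in NCO, 1.67 ± 0.151 in NC1 and 1.38 ± 0.0764 in KO1. It was not called in NCO minus KO1 (adjusted p = 0.0748), NC1 minus KO1 (0.144) or NCO minus NC1 (0.824). The ubiquitin ligase SIAH1 was at 3.87 ± 0.0369 in NCO, 3.34 ± 0.788 in NC1 and 4.08 ± 0.253 in KO1 and was not called either. The apoptosis inhibitor BCL2 was lower relative to KO1, at 9.42 ± 0.173 in NCO, 8.14 ± 0.299 in NC1 and 16.6 ± 0.0621 in KO1. The XIAP antagonist DIABLO was higher than in KO1, at 22.9 ± 1.31 in NCO, 25.9 ± 2.35 in NC1 and 18.02 ± 0.428 in KO1. The apoptosome scaffold APAF1 was at 6.48 ± 0.486 in NCO, 5.21 ± 0.454 in NC1 and 4.53 ± 0.184 in KO1, higher in NCO than in KO1 (adjusted p = 0.000851). BID, which carries the caspase signal to mitochondria, was at 22.2 ± 0.667 in NCO, 25.5 ± 2.86 in NC1 and 29.4 ± 0.239 in KO1, lower in NCO than in KO1 (adjusted p = 0.000828). The ARTS isoform itself cannot be separated from the other SEPTIN4 isoforms in values per gene.

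**Figure D5:**
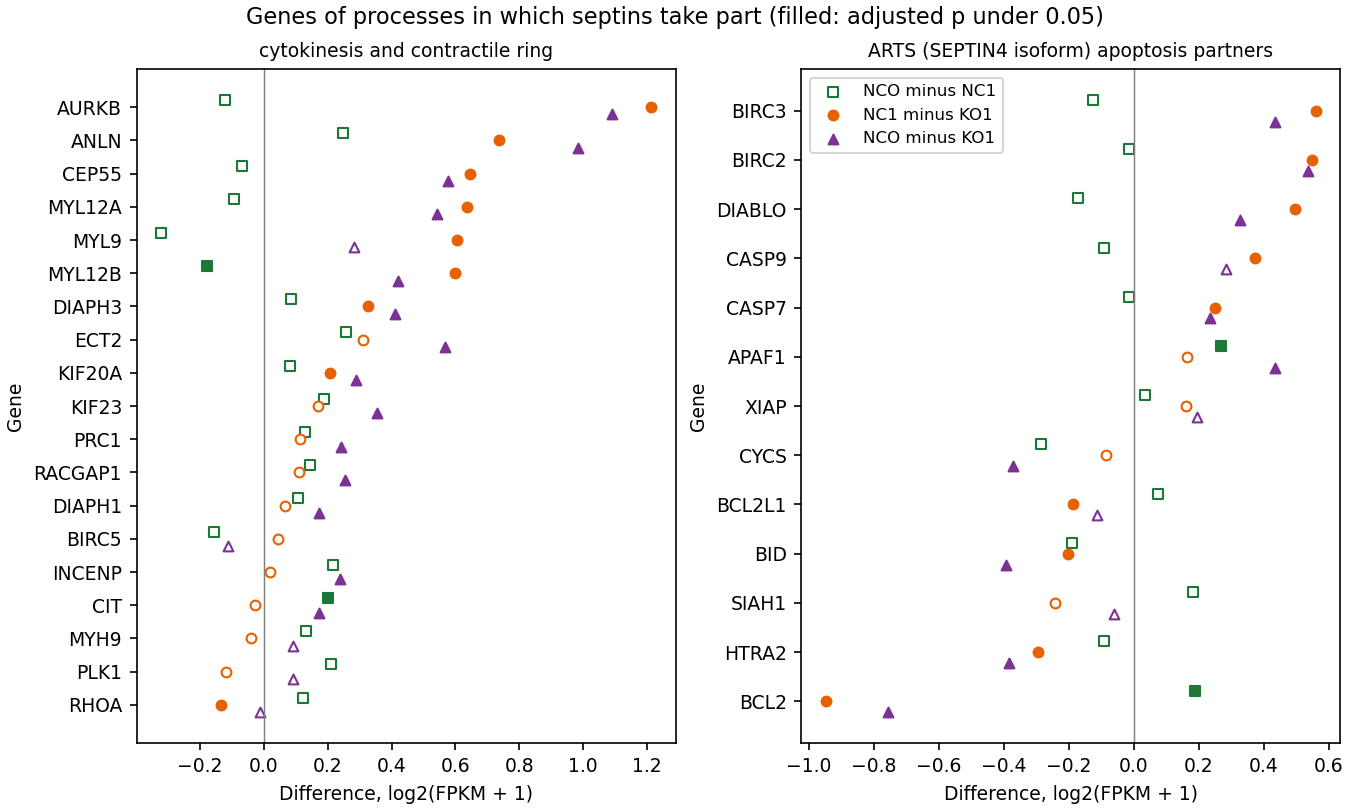
Differences on the log2(FPKM + 1) scale (horizontal axis) for the tested genes of the cytokinesis list (left) and of the ARTS partner list (right, genes reported here), with squares for NCO minus NC1, circles for NC1 minus KO1 and triangles for NCO minus KO1, filled where the adjusted p was under 0.05. AURKB and ANLN lie farthest to the right on the left panel and BCL2 farthest to the left on the right panel.

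Among the Borg proteins, which bind septins under the control of CDC42-type GTPases, and these GTPases, 5 of 8 were tested. In NC1 minus KO1 2 were higher and 1 lower, in NCO minus KO1 2 were higher and 0 lower, and in NCO minus NC1 1 was higher and 0 lower. The higher genes against KO1 were RHOQ and CDC42EP5, and the filter favours a call of CDC42EP5, so RHOQ alone is free of it. The share called over all genes was 47.2% in NC1 minus KO1, 52.2% in NCO minus KO1 and 14.7% in NCO minus NC1. After trimmed-mean scaling 1 was higher in each comparison with KO1, and 1 was lower in NC1 minus KO1. The GTPase RHOQ was at 8.85 ± 0.585 FPKM in NCO, 8.67 ± 0.363 in NC1 and 6.06 ± 0.746 in KO1. CDC42EP5, a low gene that passed the filter through the groups where it was high, was at 0.634 ± 0.369 in NCO, 0.985 ± 0.155 in NC1 and 0.103 ± 0.0932 in KO1. CDC42EP3 was at 22.9 ± 1.95 in NCO, 19.2 ± 1.00 in NC1 and 22.7 ± 0.487 in KO1, and its calls in NC1 minus KO1 (adjusted p = 0.014) and NCO minus NC1 (adjusted p = 0.0319) were lost under some settings. CDC42 was not called, at 35.9 ± 1.55 in NCO, 36.1 ± 6.14 in NC1 and 40.8 ± 6.92 in KO1. Of 12 cross-linkers and regulators 10 were tested, with 5 higher and 1 lower in each comparison with KO1 and 0 called in NCO minus NC1 by limma, where 4 had an unadjusted p under 0.05, against 31.2% of all genes. After trimmed-mean scaling 3 were higher and 1 lower in NCO minus KO1 and 2 higher and 2 lower in NC1 minus KO1. With mitochondrial genes removed 9 were higher and 1 lower in NCO minus KO1, where 7419 of all 12561 genes were called. The same setting gave 6 higher and 1 lower in NC1 minus KO1 (6260 of all genes called). It gave 3 higher and 0 lower in NCO minus NC1 (2484 of all genes called). Quantile normalization gave 2 higher and 0 lower in NCO minus NC1. The kinase CDK5 was lower than in KO1, at 16.3 ± 1.26 in NCO, 17.8 ± 1.12 in NC1 and 24.0 ± 0.944 in KO1, and PAK1 was higher, at 31.0 ± 0.278 in NCO, 32.9 ± 0.952 in NC1 and 25.6 ± 2.13 in KO1.

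Among the genes whose pattern over the 9 libraries was most like that of SEPTIN4, by Pearson's r on the log2(FPKM + 1) scale, were KLF4 (0.999), HSPA8 (0.998), PER1 (0.998) and ACADVL (0.997). The 9 libraries form 3 groups, so r mostly reflects the step between KO1 and the others, and 92 of 11808 other genes reached an r of 0.99. Each of the named genes was at a like level in NCO and NC1 and lower in KO1, with smaller steps than SEPTIN4. The transcription factor KLF4 was at 21.3 ± 1.07 FPKM in NCO, 21.0 ± 0.222 in NC1 and 6.13 ± 0.407 in KO1. The chaperone HSPA8 was at 499 ± 12.4 in NCO, 487 ± 15.2 in NC1 and 256 ± 6.51 in KO1. The clock gene PER1 was at 8.96 ± 0.360 in NCO, 8.75 ± 0.112 in NC1 and 4.04 ± 0.255 in KO1. Among the other members r with SEPTIN4 was 0.96 for SEPTIN6, 0.74 for SEPTIN7, 0.69 for SEPTIN11, 0.52 for SEPTIN2 and -0.95 for SEPTIN9. SEPTIN4 was chosen for its step against KO1, so these values mostly restate the step of each member given above. The share of all genes that reach an r of this size was not counted. Shared regulation with SEPTIN4 was not tested.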

How the data were processed

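RNA from MV4-11 cells was sequenced in 9 libraries, 3 per title stem (NCO, NC1, KO1). Per the labels' protocols, the extraction used Trizol and the libraries an Illumina TruSeq kit. The submitters' processing notes name CASAVA 1.8, Trimmomatic, FastQC, HISAT2, StringTie, edgeR and GRCh38, without roles. The deposited table gives a value per gene and library, read as FPKM because values are not whole, sums differ between libraries and StringTie writes FPKM; the file header names no unit. Low values showed no steps of whole reads (the commonest ratio within 1 pair of libraries held for at most 0.854% of low genes), so depth is unknown and no counting interval is given.

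Values were analysed as log2(FPKM + 1), which understates changes of low genes. Genes with at least 1 FPKM in at least 3 libraries, 12586 of 60612, were fitted together in limma 3.58.1 (R 4.3.3) with trend and robust moderation. The p-values are two-sided and adjusted by Benjamini-Hochberg over these genes. In data simulated with equal spread in all groups, 1.25-fold changes were called at 60% in NC1 minus KO1, 52% in NCO minus NC1 and 42% in NCO minus KO1. For 2-fold changes these were 98%, 100% and 96%. Each fold was set on the log2(FPKM + 1) scale for 50 of 12586 genes, drawn from those above a set mean level. Among the measured genes 47.2% were called in NC1 minus KO1, 14.7% in NCO minus NC1 and 52.2% in NCO minus KO1. The simulated rates therefore do not carry over to these comparisons. Small differences can go uncalled, and groups of unequal spread were not simulated. A gene is called at an adjusted p under 0.05. Intervals are 95% and not adjusted. Whether replicates come from separate cultures is not labelled, so p-values measure the spread between these libraries, which may be technical. Members and lists were chosen with earlier results of these data known. Named genes are the members, the other septins and their related transcripts, genes within 100 kb of SEPTIN4, up to 5 called genes per list with the smallest adjusted p plus genes with a known role, and the 5 genes with the highest r; some genes that this rule names are not reported here. Promoter windows are those of RefSeq (GRCh38.p14); all 6 members matched by symbol. Alternatives were another pseudocount, 2 other filters, 3 scalings, a fit of the compared groups only, a replicate block and leaving out each library.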

Additional observations from a re-analysis of the deposited data

How the results depend on the processing

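SEPTIN6 and SEPTIN9 against KO1, and SEPTIN7 in NC1 minus KO1, kept their direction and call under all 17 alternatives, and SEPTIN4 in NCO minus NC1 was called under none. Removing mitochondrial genes put the median difference of all genes at 0.19 in NCO minus KO1, 0.12 in NC1 minus KO1 and 0.07 in NCO minus NC1, against 0.08, 0.06 and 0.01 with them. Under it SEPTIN7 (0.44) in NCO minus KO1, SEPTIN11 (0.25) in NC1 minus KO1, and SEPTIN2 (0.23) and SEPTIN6 (0.23) in NCO minus NC1 became called. Trimmed-mean scaling turned SEPTIN2 in NC1 minus KO1 to -0.033 and ended the calls of SEPTIN2 (0.12) and SEPTIN11 (0.18) in NCO minus KO1. Quantile normalization called SEPTIN2 in NCO minus NC1 (0.23) and ended SEPTIN11 in NCO minus KO1 (0.17). Without a filter the genes called in NCO minus NC1 were 781 in place of 1855. The calls of SEPTIN2 (0.22) and SEPTIN11 (0.26) in NCO minus KO1 ended too. More genes then share both the moderation of spread and the adjustment, and the part of each was not tested. The filter of at least 5 FPKM called SEPTIN7 in NCO minus NC1 (-0.38) and NCO minus KO1 (0.33). A pseudocount of 0.1 gave SEPTIN4 6.22 in NCO minus KO1 and 6.10 in NC1 minus KO1, and called SEPTIN7 in NCO minus KO1 (0.38), as did a fit of the compared groups only (0.33).

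Libraries with the same replicate number did not deviate together (correlations from -0.101 to 0.0797), so the numbers are not taken as a pairing. The replicate block called SEPTIN7 in NCO minus NC1 (-0.38) and NCO minus KO1 (0.33), and ended SEPTIN2 (0.22) and SEPTIN11 (0.26) in NCO minus KO1. It gave 1389 genes called in NCO minus NC1. Leaving out 1 library at a time gave, in NCO minus KO1, 0.18 to 0.27 for SEPTIN2, 0.20 to 0.42 for SEPTIN7 and 0.20 to 0.34 for SEPTIN11. In NC1 minus KO1 it gave -0.024 to 0.12 for SEPTIN2, below 0 without NC1 replicate 3, and 0.098 to 0.24 for SEPTIN11. In NCO minus NC1 it gave 0.10 to 0.24 for SEPTIN2, -0.45 to -0.25 for SEPTIN7, 0.012 to 0.17 for SEPTIN11 and -0.019 to 0.046 for SEPTIN9, the last below 0 without NC1 replicate 3 or NCO replicate 2. The genes called there ranged from 908, without NCO replicate 2, to 1716, with 1064 without NCO replicate 1 and 1076 without NC1 replicate 2. The filter by construction changes which genes are fitted and adjusted together. What caused the changes under any of the settings was not tested. Depth is unknown, so how far KO1 values of SEPTIN4 under 1 FPKM are set by few reads could not be assessed.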
